A study of Arabidopsis thaliana with 4 samples.

Results

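Cytochrome P450 monooxygenases, glutathione transferases of the tau and phi classes, and UDP-dependent glucosyltransferases are examined in roots of Arabidopsis thaliana deprived of potassium. The members are all probe sets that the platform annotation pairs with exactly 1 gene whose symbol is CYP, digits, a letter and digits, GSTU or GSTF and digits, or UGT, digits, a letter and digits. UGT72E1 and UGT72E2 were set aside. The rule used gene symbols and no measured value, though the families were chosen with earlier results of these data known. It gave 79 members, 1 probe set per gene, of 13513 probe sets with exactly 1 listed gene: 22 cytochrome P450s (P450s), 12 glutathione transferases (GSTs) and 45 glucosyltransferases (UGTs). The annotation lists no gene for 8730 other probe sets, and it gives some family genes under symbols outside the rule, such as UF3GT for UGT79B1, GT72B1 for UGT72B1 and SGT for UGT80A2. Such genes are not members here, so each family is covered in part. Of the genes listed for comparison, 11 of 28 tau-class and 1 of 13 phi-class GSTs are members. No P450 listed for brassinosteroid, abscisic acid, jasmonate or gibberellin metabolism is a member. Nor is any listed for suberin, root triterpenes or the response to foreign compounds.

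P450s insert oxygen into small molecules, GSTs join glutathione to reactive or foreign compounds, and UGTs transfer sugar to hormones, phenolics and defence compounds. In roots these families serve the detoxification of foreign molecules and also the synthesis and inactivation of hormones and secondary metabolites. Many members lie in rows of neighbouring, similar genes. A probe set may then also bind a close relative's transcript, so single-gene readings of such rows are uncertain.

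Each of the 4 single-colour Affymetrix ATH1 arrays was a group of its own, with 1 array per group. Mixed roots of hydroponically grown Col-0 wild-type plants, aged 4 to 5 weeks, were taken 48 h or 96 h after transfer. Control plants went to fresh solution with 0.5 mM KH2PO4 and 1.25 mM KNO3. Starved plants went to a potassium-free solution in which 0.5 mM H3PO4 and 1.25 mM HNO3 took the place of those salts. All 4 groups shared the accession, the 16 h photoperiod and the transfer. Signals are MAS5 intensities in arbitrary units, and fewer cells of a type cannot be told apart from less RNA per cell in whole roots.

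The arrays differed in ways that touch the comparisons below. The 18 spike-in control probe sets were 1.8-fold to 2.65-fold higher on the starved than on the control array at 96 h, and 1.09-fold to 1.64-fold higher at 48 h. The 25S ribosomal RNA probe set measured 795.4 on the starved 48 h array and 58.7 to 73.1 on the others. Of 11 root hair markers listed, 3 had a named probe set (EXPA7, EXPA18 and XTH26), and none of these was at 0. They summed to 326.5 (control 48 h), 490.4 (starved 48 h), 186.6 (control 96 h) and 272.7 (starved 96 h). Of 24 photosynthesis markers, RCA and PRK had a named probe set, with sums of 176.0 and 177.4 at 48 h and 320.5 and 251.3 at 96 h in control and starved roots. Of 14 low-oxygen markers, PDC2 and HRA1 did, with sums of 546 and 698 at 48 h and 1533 and 2018 at 96 h. No gene listed for the endodermis, the stele or the root cap had a named probe set. The part of these shifts in the values of the 3 families was not tested.

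Transcripts of 35 members were bright enough for the test, which asked for a signal at or above the array's own 40th percentile (29.4 to 30.4) on at least 2 arrays. That is 44.3% of the members, against 61.5% of all probe sets. The share was 7 of 22 among P450s, 8 of 12 among GSTs and 20 of 45 among UGTs. On all 4 arrays, 32 members (40.5%) stood at or above that level, against 55.2% of all probe sets, and 41 (51.9%) did so on no array, against 35.4%. Of the 3 members that passed with fewer arrays, CYP71B28 passed through its 48 h arrays alone, UGT76C1 through its 96 h arrays alone, and UGT87A2 fell short on the control 48 h array.

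**Figure D1:**
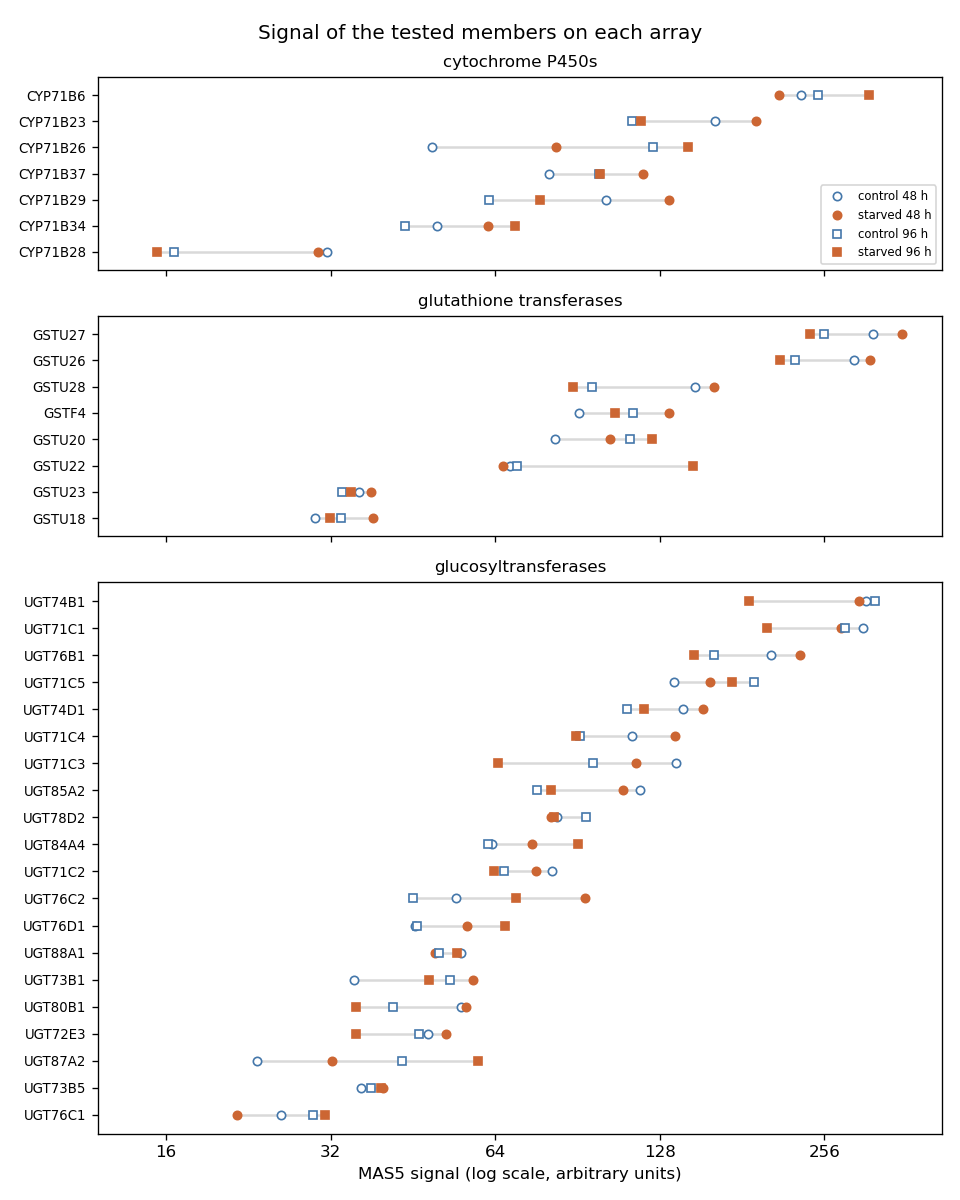
MAS5 signal (log axis, arbitrary units) of the 35 tested members, a row per gene and a panel per family. Open and filled symbols are control and starved roots, circles are 48 h and squares 96 h, and the grey line spans the 4 arrays. CYP71B26 spread from 48.9 to 144.0, GSTU22 was high on the starved 96 h array alone, and GSTU23 stayed between 33.6 and 37.8. Levels of different genes are not comparable, since each probe set has its own response.

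Starvation was examined first as the mean of the differences at 48 h and 96 h, on the log2(signal + 16) scale used for all differences and folds here. No member of any family passed limma's test for starvation at an adjusted p of 0.05, against 0.193% of the 13998 tested probe sets (27 of them). At an unadjusted p under 0.05 limma gave 6 of the 35 tested members (17.1%), beside 7.39% of all tested probe sets. These were the P450s CYP71B26 and CYP71B34, GSTU22, and UGT76C2, UGT71C3 and UGT74B1. The lowest adjusted p from limma was 0.202, for UGT76C2. Each p has 1 residual degree of freedom, given by how far the 48 h and 96 h effects lie apart, and borrows most of its spread from other probe sets.

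Pairs of signals below give control first and starved second. Among the glucosyltransferases, UGT76C2 (AT5G05860), which inactivates cytokinins by adding glucose to a ring nitrogen, measured 54.2 with and 93.4 without potassium at 48 h. At 96 h it measured 45.2 and 69.8. Both starved arrays lay above both control arrays. The mean log2 difference was 0.56 ± 0.15 (SE, 2 arrays per solution), with a 95% interval from 0.24 to 0.89. The adjacent gene UGT76C1 (AT5G05870), which encodes the other cytokinin N-glucosyltransferase, measured 25.9 and 21.5 at 48 h, then 29.7 and 31.2 at 96 h. Its mean log2 difference was -0.06 ± 0.18 (SE), with a 95% interval from -0.45 to 0.34. Both 48 h signals of UGT76C1 lay below the 40th percentile of their arrays. The intervals of the neighbours overlapped, and the difference between these genes was not tested.

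UGT74B1 (AT1G24100), which adds the glucose in the core pathway of glucosinolates, measured 305 with and 295.6 without potassium at 48 h. At 96 h it measured 316 and 186, so the starved 96 h array alone was low. It was 1.64-fold lower in starved roots at 96 h and 1.03-fold lower at 48 h. UGT71C3 (AT1G07260), which glucosylates methyl salicylate, measured 137.1 and 115.6 at 48 h, then 96.5 and 64.7 at 96 h. The log2 differences of UGT71C3 were -0.22 and -0.48. UGT71C1 (AT2G29750), a flavonoid and phenylpropanoid glucosyltransferase by its activity in the test tube, measured 301.0 and 274.8 at 48 h, then 279.3 and 201.1 at 96 h. In UGT71C1 both starved arrays lay below both controls, with log2 differences of -0.12 and -0.44.

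UGT84A4 (AT4G15500), a hydroxycinnamate glucosyltransferase, measured 63.1 and 74.7 at 48 h, then 62.1 and 90.7 at 96 h. UGT76D1 (AT2G26480), which glucosylates dihydroxybenzoic acids, measured 45.7 and 56.9 at 48 h, then 46.0 and 66.7 at 96 h. Both genes were higher in both starved roots, and neither passed the test (limma adjusted p = 0.676 and 0.691). UGT73B1 (AT4G34138) stood higher at 48 h, with 35.3 and 58.3, and not at 96 h, with 52.8 and 48.3. In all, both starved arrays lay above both controls for 4 of 20 tested UGTs (the fourth was UGT73B5, at 36.3 to 39.9), against 11.6% of all tested probe sets. They lay below both controls for 3, UGT74B1, UGT71C1 and the flavonol glucosyltransferase UGT78D2, against 13%. For UGT78D2 the margin was only 81.8 under 83.0. The median log2 difference of the 20 UGTs was 0.09 at 48 h and -0.03 at 96 h, beside -0.01 and 0.00 over all tested probe sets.

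The hormone and defence lists of glucosyltransferases had few measured genes, and limma called none of them for starvation. The salicylate and defence list had 3 tested members of 7 listed genes (UGT73B5, UGT71C3 and UGT76B1). UGT76B1 (AT3G11340), which glucosylates isoleucic acid and salicylate, measured 204.6 and 230.6 at 48 h, then 161.1 and 148.0 at 96 h. UGT71C5 (AT1G07240), which makes the glucose ester of abscisic acid, was the tested member of the abscisic acid list, with 136 and 158 at 48 h and 190 and 173 at 96 h. UGT74D1 (AT2G31750), which glucosylates auxin and its oxidised form, stood for the auxin list with 141 and 153 at 48 h and 111 and 119.6 at 96 h. UGT71C5 and UGT74D1 differed between solutions by at most 0.20 on the log2 scale at either time.

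All 7 tested P450s were of the CYP71B subfamily, so their values do not speak for other P450 subfamilies. Of the 7, 5 stood higher without potassium at both times: CYP71B29, CYP71B23, CYP71B26, CYP71B34 and CYP71B37. Over all tested probe sets 23.9% had that pattern. The count rests on sign alone: at 96 h the log2 difference was 0.004 for CYP71B37 and 0.04 for CYP71B23. All 5 genes lie in rows of neighbours, whose probe sets may also bind a relative's transcript. CYP71B34 (AT3G26300) measured 50.1 with and 61.9 without potassium at 48 h, and 43.8 and 69.4 at 96 h. Its groups did not overlap, and the mean log2 difference was 0.38 ± 0.16 (SE, 95% interval 0.04 to 0.72, limma adjusted p = 0.569). Both starved arrays lay above both controls for 2 of 7 tested P450s, against 11.6% of all tested probe sets. The other was CYP71B37, by a margin of only 99.5 over 99.2. No tested P450 had both starved arrays below both controls, against 13%. CYP71B26 (AT3G26290) measured 48.9 and 82.8 at 48 h, then 124.4 and 144.0 at 96 h, with log2 differences of 0.60 and 0.19. Its control 96 h value exceeded its starved 48 h value, so the groups overlapped. Specific reactions of CYP71B26, CYP71B29, CYP71B23, CYP71B34 and CYP71B37 are not given here.

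CYP71B37 (AT3G26330) differed between solutions at 48 h, with 80.2 and 119.2, and hardly at 96 h, with 99.2 and 99.5. CYP71B6 (AT2G24180), which oxidises indole-3-acetonitrile, measured 231.7 and 211.6 at 48 h, then 249.5 and 309.4 at 96 h. Of these 7 genes, 6 belong to the CYP71B rows on chromosomes 1 and 3, and CYP71B6 lies apart. The median log2 difference of the 7 was 0.24 at 48 h and 0.19 at 96 h. At least 1.5-fold differences were reached by CYP71B26 at 48 h, 1.52-fold higher, against 2.33% of all tested probe sets, and by no P450 at 96 h, against 5.09%.

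Among the 8 tested GSTs the starvation difference was highest at 96 h for GSTU22 (AT1G78340), a tau-class enzyme, and at 48 h for GSTF4. GSTU22 measured 68.1 with and 66.0 without potassium at 48 h, and 70.1 and 147.0 at 96 h. The starved 96 h array alone was high, 1.89-fold above the control, and the other 3 arrays lay between 66.0 and 70.1. The mean log2 difference was 0.44 ± 0.19 (SE, limma adjusted p = 0.585), which joins -0.04 at 48 h and 0.92 at 96 h. That array's 18 spike-in probe sets stood a median of 2.01-fold above those of the control 96 h array. The part of this shift in the GSTU22 value was not tested.

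GSTF4 (AT1G02950), the phi-class member, measured 91.1 and 133.0 at 48 h, then 114.5 and 106.1 at 96 h. The log2 differences of GSTF4 were 0.48 and -0.10. GSTU20 (AT1G78370), a tau-class enzyme that binds a jasmonate-signalling protein, measured 82.1 and 103.9 at 48 h, then 113.0 and 123.9 at 96 h. GSTU18, GSTU23, GSTU26, GSTU27 and GSTU28 lay between -0.10 and 0.24 in their log2 differences at either time. No tested GST had both starved arrays above both controls, against 11.6% of all tested probe sets, or below them, against 13%. The median log2 difference was 0.14 at 48 h and -0.06 at 96 h.

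**Figure D2:**
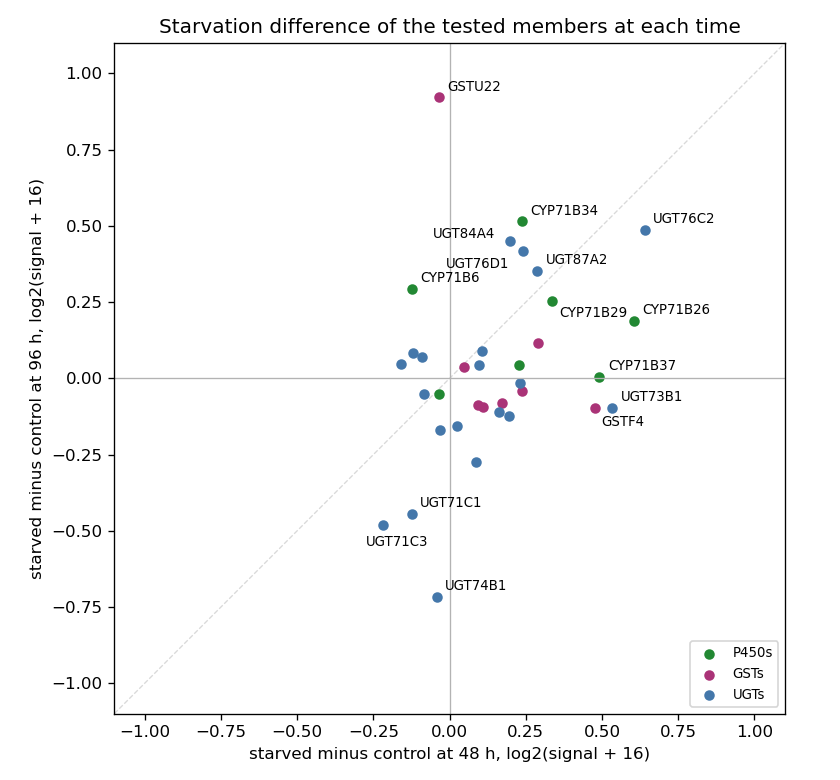
Starved minus control at 48 h (horizontal) and at 96 h (vertical) for the 35 tested members, both on the log2(signal + 16) scale, with a point per gene coloured by family. The dashed line marks equal differences. UGT76C2 lies highest on both axes together (0.64 and 0.49), whereas GSTU22 (0.92) and UGT74B1 (-0.72) differ at 96 h and lie near 0 at 48 h.

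Within a time the differences are values without a test. At 48 h, 2 of the 35 tested members were at least 1.5-fold higher in starved roots, CYP71B26 and UGT76C2 (1.56-fold), against 1.1% of all tested probe sets. None was 1.5-fold lower, against 1.23%. At 96 h GSTU22 was at least 1.5-fold higher, against 2.46%, and UGT74B1 lower, against 2.64%. Taken over both directions these are 2 members at each time, beside the 2.33% and 5.09% given above. No member reached 2-fold at either time, against 0.143% and 0.85%. No member was at least 1.5-fold in opposite directions at the 2 times. The SD of the log2 differences over the 35 members was 0.222 at 48 h and 0.306 at 96 h, beside 0.237 and 0.295 over all tested probe sets.

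The harvests were compared next, as the mean of the differences between 96 h and 48 h in control and starved roots. By limma's test, 2 members rose at 96 h, CYP71B26 and UGT87A2, and 4 fell, CYP71B29, CYP71B23, GSTU28 and UGT71C3. These 6 calls are 17.1% of the 35 tested members, against 7.35% of all tested probe sets (4.11% higher and 3.24% lower). They comprised 3 of 7 P450s, 1 of 8 GSTs and 2 of 20 UGTs. Each time held 1 control and 1 starved array, so these p-values and their SEs do not measure the spread between harvests.

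CYP71B26, with the values given above, rose 1.87-fold, by 0.90 ± 0.16 on the log2 scale (SE, 2 arrays per time, limma adjusted p = 0.00172). It rose by 1.11 in control and 0.70 in starved roots, and both 96 h arrays lay above both 48 h arrays. CYP71B29 (AT1G13100) measured 101.8 with and 132.8 without potassium at 48 h, and 62.3 and 77.4 at 96 h. It fell 1.55-fold (limma adjusted p = 0.0151), and its neighbour CYP71B28 (AT1G13090) went from 31.5 and 30.4 to 16.6 and 15.4. CYP71B28 entered the test through its 48 h signals alone, so its lower 96 h values are a description. CYP71B23 (AT3G26210) went from 161.3 and 191.7 to 114.0 and 118.1 and fell 1.45-fold (limma adjusted p = 0.0366). Of the tested CYP71B genes of the rows on chromosome 3, CYP71B26 thus rose, CYP71B23 fell, and CYP71B34 and CYP71B37 had mean log2 differences of -0.01 and 0.02.

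GSTU28 (AT1G53680), a tau-class enzyme, measured 148.2 and 161.0 at 48 h, then 96.0 and 88.9 at 96 h, in control and starved roots. It fell 1.57-fold, by 0.65 on the log2 scale with an SE of 0.15 (limma adjusted p = 0.0128). GSTU26 (AT1G17190) and GSTU27 (AT3G43800) also had both 96 h arrays below both 48 h arrays, with mean log2 differences of -0.43 and -0.41, and did not pass. GSTU22, in contrast, went from 66.0 to 147.0 without potassium and stood at 68.1 and 70.1 with it, and its mean difference did not pass (limma adjusted p = 0.126).

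UGT71C3 fell 1.49-fold (limma adjusted p = 0.0281), by 0.45 in control and 0.71 in starved roots on the log2 scale. UGT87A2 (AT2G30140), a regulator of flowering time, measured 23.4 and 32.1 at 48 h, then 43.2 and 59.6 at 96 h. It rose 1.54-fold (limma adjusted p = 0.0345), and its control 48 h signal lay below that array's 40th percentile, so the fold depends on the pseudocount. UGT85A2 and UGT76B1 each had a mean log2 difference of -0.45 and missed the threshold (limma adjusted p = 0.0816 and 0.0861). The neighbours UGT71C5, UGT71C4 and UGT71C3 stood at mean log2 differences of 0.28, -0.40 and -0.58, in that order along chromosome 1.

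**Figure D3:**
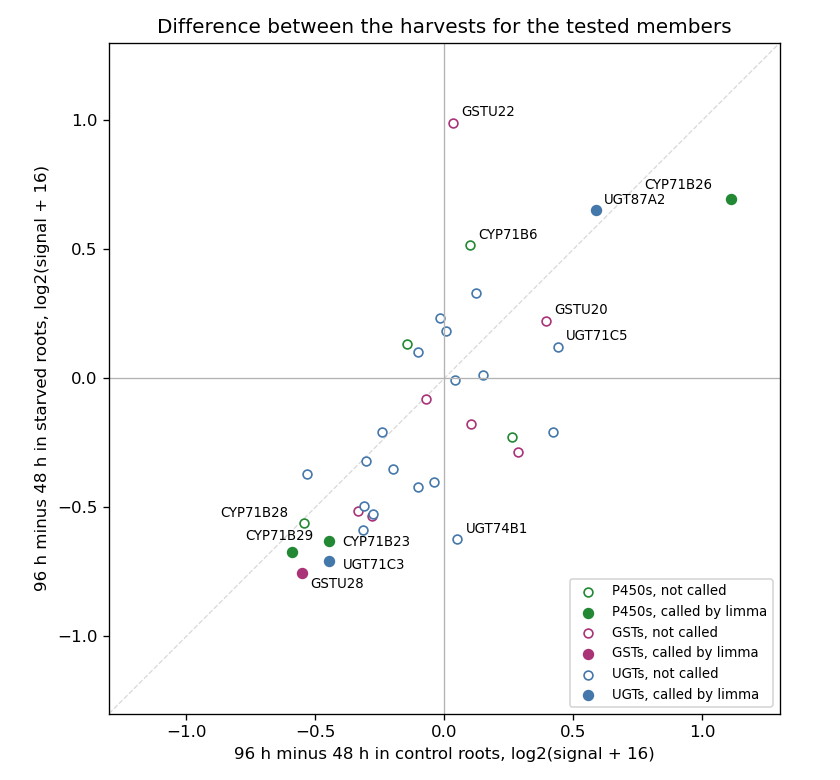
Difference between 96 h and 48 h in control roots (horizontal) and in starved roots (vertical) for the 35 tested members, on the log2(signal + 16) scale. Filled points passed limma's test for the mean difference and open points did not. The dashed line marks equal differences. CYP71B26 and UGT87A2 lie to the upper right, and 4 called genes lie to the lower left.

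More members stood lower than higher at the later harvest. Both 96 h arrays lay below both 48 h arrays for 15 of the 35 tested members (42.9%), against 26.4% of all tested probe sets, and above them for 7 (20%), against 25.1%. These counts include CYP71B28 among the 15 and UGT76C1 among the 7, which passed the filter only through the time at which they were higher. Among the 32 members bright enough on all 4 arrays, a limit set after seeing the data, the counts were 14 (43.8%, against 26.5% of all such probe sets) and 5 (15.6%, against 24.9%). The 15 comprised 3 P450s, 4 GSTs and 8 UGTs. In starved roots the median log2 difference between the harvests was -0.23 for P450s, -0.23 for GSTs and -0.27 for UGTs, beside 0.00 over all tested probe sets. In control roots it was -0.14, -0.02 and -0.07, beside -0.01. Without CYP71B28 the P450 medians were -0.05 in starved and -0.02 in control roots. The 3 named root hair markers fell by the same test, and the named photosynthesis and low-oxygen markers rose.

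All 6 calls rest on the setting: limma's adjusted p for each was above 0.1 without the filter on low values. Leaving out the control 48 h array or the starved 48 h array, with time as the only term, left 0 of the 6. With all 4 arrays that fit left GSTU28. CYP71B23 lost its call in 10 of 13 alternatives, UGT87A2 in 8 of 12 and UGT71C3 in 7 of 13. Without the starved 96 h array the difference of UGT71C3 was -0.34 on the log2 scale, and without the control 48 h array that of CYP71B26 was 0.60.

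Beyond the families, few genes of the wider detoxification system had a named probe set. Of 19 genes listed for glutathione and other GST classes, the glutathione reductase gene GR1 (AT3G24170) and the lambda-class GSTL3 (AT5G02790) were tested. Both rose at 96 h by limma and neither passed for starvation. GSTL3 measured 66.4 and 88.2 at 48 h, then 99.3 and 134.7 at 96 h, in control and starved roots. GR1 measured 176.0 and 158.4 at 48 h, then 259.5 and 260.9 at 96 h. Of 30 listed detoxification partners and transporters, the alkenal reductase gene AER and the mitochondrial NAD(P)H dehydrogenase gene NDB2 were tested, and neither passed for starvation or harvest.

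The 44 members below the filter were measured between 0.31 and 34.8 and were not tested. Of these, 17 stayed under 5 units on every array, among them CYP79A2, which starts benzylglucosinolate synthesis, the auxin glucosyltransferase UGT84B1, the flavonol rhamnosyltransferase UGT78D1 and the abscisic acid glucosyltransferase UGT71B6. UGT74F1 (AT2G43840), which glucosylates salicylate, measured 16.7 with and 3.5 without potassium at 48 h and 22.1 and 5.1 at 96 h. UGT76E11 (AT3G46670), a flavonoid glucosyltransferase, measured 0.65 and 8.4 at 48 h, then 1.0 and 5.6 at 96 h. In UGT74F1 the starved arrays lay below both controls and in UGT76E11 above them, but all 8 values were under the 40th percentile, so no fold is given. Such separation occurred in both directions at these low signals. Of the 44 untested members, 8 had both starved arrays above both controls and 8 had them below. Over all probe sets under the filter the shares were 20% and 12.2%, and over all tested probe sets 11.6% and 13%. CYP84A4 (AT5G04330), which takes part in making arabidopyrones, measured 28.7 and 24.4 at 48 h, then 23.2 and 16.5 at 96 h. CYP78A9 (AT3G61880), a regulator of seed and fruit size, measured 4.6 to 18.5.

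Rows of neighbouring members were examined last. With up to 3 other protein-coding genes allowed between neighbours, 54 of the 79 members fell into 20 rows, and 21 of these 54 were tested. Of the 20 rows, 8 held both tested and untested members, 4 held tested members alone and 8 held none that was tested. In the row of CYP71B25, CYP71B26, CYP71B34, CYP71B35, CYP71B36 and CYP71B37, CYP71B26, CYP71B34 and CYP71B37 were tested, and CYP71B36 stayed between 0.67 and 3.56 units. In the row of UGT85A7, UGT85A2, UGT85A5 and UGT85A3, UGT85A2 alone passed the filter, with 76.4 to 117.5. In the row of GSTU23, GSTU22, GSTU21 and GSTU20 the starvation log2 differences at 96 h were 0.04 for GSTU23, 0.92 for GSTU22 and 0.12 for GSTU20.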

How the data were processed

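RNA of 4 root samples was hybridised to 4 Affymetrix ATH1 arrays, and samples were grouped by their titles. The deposited values are linear MAS5 signal intensities, per the submitters' processing notes. The sources used here give neither its version nor its settings. The deposited 2% trimmed mean was 100.01 on each array. Each array was set to 100, and 64 control probe sets were removed, leaving 22746. Probe sets at or above the array's 40th percentile on at least 2 arrays were tested (13998). Differences are on the log2(value + 16) scale, which understates changes of dim probe sets. limma 3.58.1 (R 4.3.3, lmFit, eBayes with trend) fitted solution and time to all 4 arrays, with Benjamini-Hochberg adjustment over all 13998. With 1 residual and 14.94 prior degrees of freedom, p-values, SEs and intervals rest mostly on other probe sets, and adjusted p-values may be too small. The fit was also run on simulated data with noise drawn from its own fitted spread. Such a run cannot check the spread between real cultures. The number of arrays limits the precision. Nothing in the labels gives separate cultures.

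Names came from the platform annotation, and all 79 members matched RefSeq's TAIR10.1 table, used for loci and gene order. Named genes were the called members, the 3 highest and 3 lowest per family at each time and between harvests, the 3 with the highest mean signal and the 3 with the smallest starvation p. Other members are named as parts of a gene list, of a row of neighbours or of the group below the filter, and UGT74F1, UGT76E11 and the untested genes were chosen after their values were seen. Members and lists were chosen with earlier results of these data known. Alternatives covered pseudocount, normalization, filter, eBayes trend, model terms and left-out arrays. No sequence table was at hand, so sequences and promoter motifs were not analysed here.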

Additional observations from a re-analysis of the deposited data

How the results depend on the processing

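Starvation calls were 0 in all 3 families under the main setting and every alternative run. For 96 h against 48 h, the 3 P450 calls became 0 without the filter on low values or the solution term. They became 2, without CYP71B23, with a pseudocount of 1, equal medians, cyclic loess or the filter at the 60th percentile. The limma adjusted p of CYP71B23 was then 0.0546 to 0.0626. The P450 calls became 4, with CYP71B28, without the eBayes trend. CYP71B28 entered the test through its 48 h signals alone, so its added call carries no weight. The GST call became 0 without the filter, and the 2 UGT calls 0 with a pseudocount of 1, after cyclic loess, without the filter or without the solution term, and 1 with equal medians or the filter at the 60th percentile. Counts of at least 1.5-fold starvation differences at 48 h moved from 1 to 0 (pseudocount of 64) or 2 (no filter) for P450s. For UGTs they moved from 1 to 2 (pseudocount of 1, no filter) or 0 (pseudocount of 64, filter at the 60th percentile). At 96 h they moved from 0 to 1 for P450s and from 1 to 2 for UGTs with a pseudocount of 1, to 2 for UGTs without the filter, and from 1 to 0 for GSTs with the filter at the 60th percentile. Without the filter more members are tested, the adjustment spans more probe sets, and eBayes also takes its shared spread from dim probe sets. At the 60th percentile fewer are tested. The cause of the moves was not tested. All probe sets of the members end in _at alone, so leaving out those ending in _s_at or _x_at changed nothing.

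Fits on 3 arrays carry only the tested term, so they change the model with the arrays, and a lone array is assumed to vary like the other groups. Without the other term, a starvation value also takes in part of the harvest difference, and the reverse. The ranges from these fits therefore do not measure the spread of a single effect. The calls between harvests then ranged from 0 to 2 for P450s, 0 to 2 for GSTs and 0 to 3 for UGTs. The mean starvation difference, on the log2 scale, then ranged from -0.16 to 0.95 for CYP71B26, -0.040 to 0.63 for CYP71B29, -0.18 to 0.45 for CYP71B23, -0.17 to 0.34 for CYP71B6 and -0.32 to 0.24 for CYP71B28. It ranged from -0.37 to 0.38 for GSTU28, -0.053 to 0.94 for GSTU22, -0.25 to 0.26 for GSTU26 and -0.22 to 0.31 for GSTU27. For UGTs it ranged from -0.0058 to 0.65 (UGT87A2), -0.70 to 0.0041 (UGT71C3), -0.22 to 0.11 (UGT76C1), -0.27 to 0.32 (UGT76B1), -0.28 to 0.26 (UGT85A2) and -0.18 to 0.26 (UGT71C5). The mean difference between harvests ranged from -0.23 to 0.26 for CYP71B37, -0.26 to 0.25 for CYP71B34, -0.16 to 0.081 for GSTU18, -0.24 to 0.24 for GSTF4 and -0.16 to 0.37 for UGT73B1. It ranged from -0.59 to 0.045 for UGT76C2, -0.65 to 0.071 for UGT74B1, -0.11 to 0.30 for UGT76D1 and -0.12 to 0.33 for UGT84A4. None of these values that crossed 0 was called under the main setting.

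With all arrays, signs turned only for values near 0: the harvest difference was -0.0019 for CYP71B37 after quantile normalization, 0.00077 for CYP71B34 with a pseudocount of 64 and 0.0015 for GSTF4 with a pseudocount of 1. The starvation difference was -0.00059 for GSTU26 with equal medians, and 0.0025 and 0.014 for UGT85A2 after quantile normalization and cyclic loess. The 6 members called between harvests kept their direction in all alternatives and their call in 39 of 77 values. Their log2 differences ranged from 0.60 to 1.21 (CYP71B26), -0.80 to -0.44 (CYP71B29), -0.65 to -0.41 (CYP71B23), -0.74 to -0.48 (GSTU28), -0.82 to -0.34 (UGT71C3) and 0.33 to 0.86 (UGT87A2, lowest with a pseudocount of 64). Without the control 96 h array, GSTU22 (0.97) and UGT74B1 (-0.65) were called as well. No paired analysis was possible because each group holds 1 array, so the groups share fewer than 2 replicate numbers. Signals near or under the 40th percentile limit the 44 untested members, and 1 array per group limits every difference.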
